A study of Mus musculus with 6 samples.

Results

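Timd4, Marco, Clec4f, Folr2 and Cd5l are 5 genes widely used to tell tissue-resident macrophages from other myeloid cells, and their raw transcript counts were followed through a mouse Xenium in situ series. They were chosen by name, and are 5 of the 5294 genes measured in the series. All 5 were among the 477 genes of the smaller panel, used on 4 sections, whereas the larger panel of 5050 genes, used on 2 sections, held Marco, Folr2 and Cd5l. The Ensembl identifiers in the files were ENSMUSG00000055546 for Timd4, ENSMUSG00000026390 for Marco, ENSMUSG00000014542 for Clec4f, ENSMUSG00000032725 for Folr2 and ENSMUSG00000015854 for Cd5l.

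Resident macrophages of many organs are seeded before birth and renew themselves where they live. In fetal liver and bone marrow they form the centre of erythroblastic islands and engulf the nuclei that red cell precursors expel. In the spleen, red pulp macrophages remove old red cells, while marginal zone macrophages line the border of the lymphoid white pulp and take up particles from the blood.

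Each section was a 5 µm slice of fixed, paraffin-embedded tissue from wild-type C57BL/6 mice, and each condition had 1 section. The smaller panel was used on liver at embryonic day (E) 14.5, bone marrow at postnatal day (P) 8, the spleen of an untreated 2-month-old adult, and the spleen of a mouse given phenylhydrazine (PHZ), which destroys red cells, at 40 mg/kg on 2 days with 2 injections per day. The larger panel was used on liver at E13.5 and on bone marrow at 89 weeks. For adult marrow the paper describes a separate route, with paraformaldehyde, freezing in gelatin, and cryosections parted from bone before paraffin. Preparation, tissue and age can therefore not be told apart between the sections of the larger panel. E14.5 liver and P8 marrow shared a slide, as did both spleens, so that slide, mouse and condition cannot be told apart between slides, and mouse and condition cannot be told apart within one. No difference between conditions therefore had a replicate check or a test. Ranges in parentheses are 95% exact intervals, which cover counting error only.

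The sections held between 5285 and 143810 cells and between 1384795 and 20952143 gene counts, with a median of 60 to 190 counts per cell. Levels are given as counts per 1000000 gene counts of a section (CPM). They were compared between sections of the same panel only, since the smaller panel carried 8 probe sets for each of the 5 genes and the larger one 2 for each of the 3 it held. Macrophages were marked by C1qa, C1qb and C1qc, which encode the chains of complement C1q: a cell with at least 3 counts of the 3 genes together is called C1q-positive below. In the spleens 36.0% (untreated) and 35.1% (PHZ) of cells were C1q-positive, compared with 12.8% in E14.5 liver, 11% in P8 marrow, 5.70% in E13.5 liver and 2.84% in 89-week marrow. On the smaller panel, hepatocyte genes summed to 41900 CPM in E14.5 liver and to 3744 CPM or less elsewhere, and cartilage genes to 41600 CPM in P8 marrow and to 149 CPM or less elsewhere, as their labels would have it. On the larger panel only 1 gene of the hepatocyte list was measured, so the E13.5 label was not checked in this way. That a cell with fewer C1q counts was no macrophage was not tested, nor that every C1q-positive cell was one. In the untreated spleen, tissue macrophage genes summed to 173200 CPM in C1q-positive cells and to 118200 CPM in all cells. In the same order, NK cell genes summed to 4694 and 4691 CPM, neutrophil genes to 7711 and 6775 CPM. Erythroid genes summed to 48050 and 34810 CPM, and T cell genes to 16960 and 25630 CPM.

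The promoters of Timd4, Marco and Cd5l are shown because the spleen results below turn on these 3 genes. The 250 bases before each RefSeq start, from build GRCm38.p6, were searched on both strands for short motifs, which stand in capitals. The core of the PU.1 site was taken as GAGGAA, the half-site of MAF factors as TGCTGA, and the half-site of nuclear receptors as AGGTCA, and the other strand of each was searched too. The Timd4 window lies at chr11:46810549-46810798 on the plus strand, Marco at chr1:120505025-120505274 on the minus strand and Cd5l at chr3:87357631-87357880 on the plus strand.
Timd4: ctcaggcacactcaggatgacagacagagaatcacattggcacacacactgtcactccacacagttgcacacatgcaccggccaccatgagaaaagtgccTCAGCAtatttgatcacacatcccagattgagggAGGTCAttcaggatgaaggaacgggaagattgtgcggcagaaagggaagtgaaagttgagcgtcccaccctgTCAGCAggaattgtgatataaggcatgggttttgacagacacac
Marco: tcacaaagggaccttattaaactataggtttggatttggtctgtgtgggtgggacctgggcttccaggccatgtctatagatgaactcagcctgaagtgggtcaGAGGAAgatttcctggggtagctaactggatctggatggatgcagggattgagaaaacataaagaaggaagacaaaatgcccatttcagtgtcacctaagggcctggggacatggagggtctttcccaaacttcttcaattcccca
Cd5l: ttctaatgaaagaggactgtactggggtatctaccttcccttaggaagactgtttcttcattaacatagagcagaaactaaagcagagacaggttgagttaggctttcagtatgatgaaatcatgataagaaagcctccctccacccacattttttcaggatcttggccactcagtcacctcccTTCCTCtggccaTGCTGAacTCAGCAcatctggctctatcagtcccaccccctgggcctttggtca
Of 32851 promoter windows of this length, 23.2% held the PU.1 core, 16.1% the MAF half-site and 14% the nuclear receptor half-site. The Marco and Cd5l windows held 1 PU.1 core each, and that of Timd4 held no such letters. The MAF half-site was found 2 times in the Timd4 window and 2 times in the Cd5l window, but not in that of Marco. The nuclear receptor half-site was found 1 time in the Timd4 window. Such short matches are common and describe the sequence only.

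Timd4 encodes TIM-4, a receptor for the phosphatidylserine on dying cells. Its level was 3488 CPM (3452 to 3524) in the untreated spleen, 608 CPM (597 to 618) in E14.5 liver, 495 CPM (482 to 508) in the PHZ spleen and 301 CPM (287 to 314) in P8 marrow. The untreated spleen therefore stood far above the other 3 sections, whose intervals did not overlap.

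Marco encodes a scavenger receptor that binds bacteria and particles. It was measured at 3928 CPM (3891 to 3964) in the PHZ spleen, 3695 CPM (3658 to 3732) in the untreated spleen, 1870 CPM (1852 to 1889) in E14.5 liver and 421 CPM (405 to 437) in P8 marrow. On the larger panel it was measured at 159 CPM (139 to 181) in E13.5 liver and 27.4 CPM (24.6 to 30.3) in 89-week marrow. On either panel, marrow held less Marco than fetal liver.

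Cd5l encodes a secreted scavenger receptor-like protein that macrophages make and that is known to protect cells from apoptosis. The untreated spleen measured 3979 CPM (3941 to 4017), the PHZ spleen 3754 CPM (3719 to 3790), E14.5 liver 1435 CPM (1418 to 1451) and P8 marrow 122 CPM (113 to 131). On the larger panel, E13.5 liver measured 612 CPM (572 to 655) and 89-week marrow 480 CPM (468 to 491). As counts per cell these were 0.161 and 0.0435, and over C1q-positive cells 5455 and 2049 CPM, so that the larger panel's sections lay further apart by both measures than by CPM over all cells. P8 marrow had the lowest level of the 4 sections of the smaller panel.

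Clec4f encodes a galactose-binding lectin of Kupffer cells, the resident macrophages of the liver. E14.5 liver measured 210 CPM (203 to 216), against 32.7 CPM (28.5 to 37.5) in P8 marrow, 22.1 CPM (19.4 to 25.2) in the untreated and 19.95 CPM (17.4 to 22.7) in the PHZ spleen. In E14.5 liver its counts were 41.8 times those of the highest negative control probe, and in the spleens 2.97 and 3 times. By CPM over all cells the intervals of the 2 spleens overlapped.

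Folr2 encodes folate receptor beta. Its level was 255 CPM (248 to 262) in E14.5 liver, 255 CPM (242 to 267) in P8 marrow, 133 CPM (126 to 140) in the PHZ spleen and 100 CPM (94.1 to 106) in the untreated spleen. By CPM over all cells, the intervals of E14.5 liver and P8 marrow overlapped, but E14.5 liver was higher as counts per cell, at 0.0455 against 0.0312, and over C1q-positive cells, at 1221 against 821 CPM. On the larger panel, E13.5 liver gave 31 counts or 22.4 CPM (15.2 to 31.8) and 89-week marrow 262 counts or 20.1 CPM (17.7 to 22.6), which likewise overlapped. Counts per cell, unlike CPM, put 89-week marrow lower, at 0.00182 against 0.00587.

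**Figure D1:**
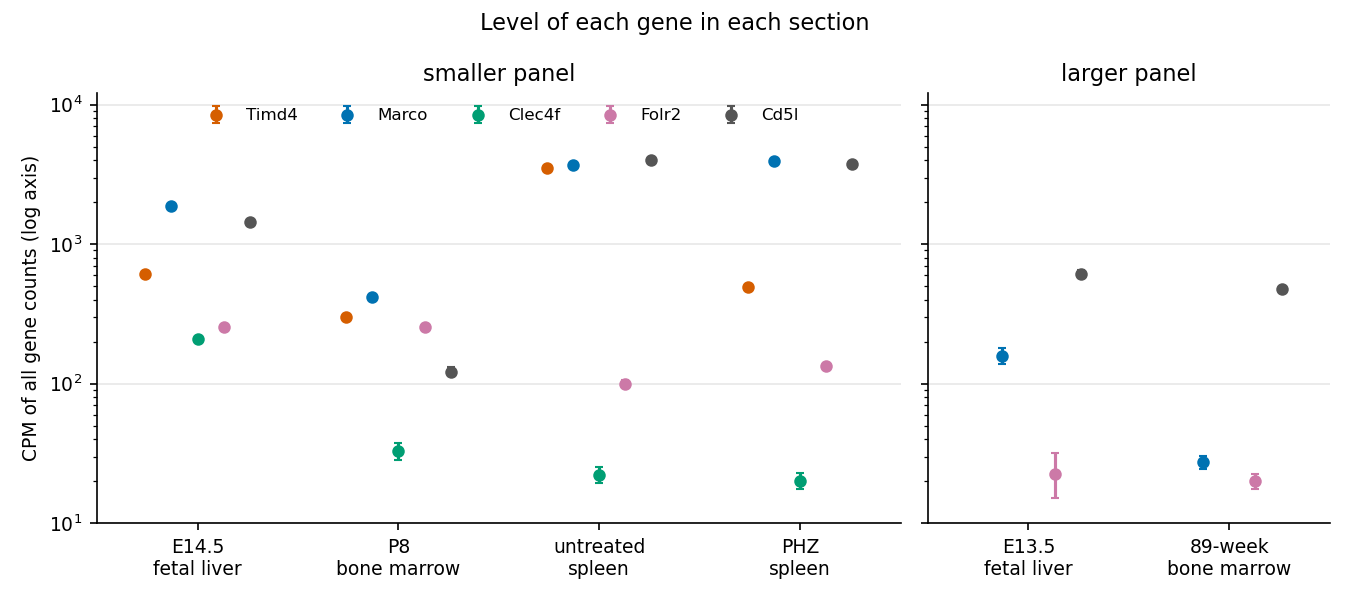
Level of each of the 5 genes by section, as CPM of all gene counts on a log axis, with the sections of the smaller panel and those of the larger panel in separate plots; bars are exact 95% Poisson intervals and each point is 1 section. Timd4 sat at 3488 CPM in the untreated spleen and at 495 CPM or less in the PHZ spleen and P8 marrow, while Clec4f was high only in E14.5 liver among the 4 sections that measured it.

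The order of sections depended on the cells over which the level was taken. Over all cells, E14.5 liver lay below the untreated spleen for Timd4, Marco and Cd5l, with log2 ratios of -2.52, -0.98 and -1.47. Over C1q-positive cells the same ratios were 0.23, 1.33 and 0.10, so that all 3 changed sign. For Clec4f and Folr2, E14.5 liver was the higher of the pair in either case, by 3.24 and 1.35 on the log2 scale over all cells and by 6.26 and 3.27 over C1q-positive cells. The Clec4f values stand against a low spleen level, whose counts were 2.97 times those of the highest negative control probe. How much of that level was background was not tested.

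In fetal liver the 5 genes were far more frequent in C1q-positive cells than elsewhere. At E14.5, 61.0% of C1q-positive cells (60.2 to 61.8) had a Marco transcript, 55.5% (54.7 to 56.3) a Cd5l transcript and 37.5% (36.7 to 38.2) a Timd4 transcript. Folr2 was found in 17.8% and Clec4f in 13.1% of them, and 82.8% had at least 1 of the 5. The background class was 53223 cells with hepatocyte genes and no C1q. Their median of 181 counts was close to the 171 of C1q-positive cells. Of all 79588 cells without C1q, 79208 held at least 3 erythroid counts, so this class is no clean hepatocyte population. Its shares were 6.74% for Marco, 3.85% for Cd5l, 1.75% for Timd4, 1.19% for Folr2 and 0.842% for Clec4f. In all cells without C1q they were 7.74%, 4.22%, 1.85%, 1.26% and 0.872%. All 5 genes had at least 1.5-fold higher CPM in C1q-positive than in other cells, against 13.9% of 469 genes, with ratios from 10.4 for Marco to 17.8 for Timd4. At E13.5, Marco and Cd5l, the members with at least 100 counts, were 34.9-fold and 26.5-fold higher in the 301 C1q-positive cells, where 12.4% of 2158 genes passed 1.5-fold. Cd5l was present in 51.5% of those cells (45.7 to 57.3), Marco in 28.2% (23.2 to 33.7) and Folr2 in 6.98% (4.37 to 10.5), compared with 2.05%, 0.376% and 0.0867% of erythroid cells without C1q (median of 195 counts, against 252 in C1q-positive cells).

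In P8 marrow Timd4, Marco, Folr2 and Cd5l were also more frequent in C1q-positive cells than elsewhere, but these cells held only 47.8% of the Folr2 counts, 51.2% of those of Marco, 53.9% of those of Timd4 and 59.6% of those of Cd5l. Timd4 was found in 14.6% (13.7 to 15.5), Marco in 11.4% (10.6 to 12.2), Folr2 in 9.27% (8.54 to 10.1) and Cd5l in 5.28% (4.72 to 5.89) of C1q-positive cells. Cells with cartilage genes and no C1q had 0.266%, 0.447%, 1.33% and 0.126%, at a median of 81 counts against 147. In erythroid cells without C1q the shares were 1.47%, 2.155%, 1.07% and 0.612%, at a median of 110 counts. These 4 genes were 5.26-fold to 8.47-fold higher in C1q-positive than in other cells, where 13.5% of 452 genes passed 1.5-fold. For Clec4f the ratio was 1.26 (0.863 to 1.80), and it did not differ beyond counting error. In 89-week marrow, Cd5l was found in 18.5% of C1q-positive cells (17.3 to 19.8), Marco in 3.24% and Folr2 in 2.45%, at a median of 134 counts. Of 68 T cells without C1q, at a median of 148 counts, 1 had Cd5l (1.47%) and none had Marco or Folr2 (exact interval up to 5.28%). Since these were few, erythroid cells without C1q are given too, in which the shares were 3.36%, 0.0958% and 0.0993% at a median of 105 counts. All 3 passed 1.5-fold there, with ratios of 5.20, 13.0 and 12.5, against 9.9% of 3465 genes. Only 22.1% of the Cd5l counts in that section lay in C1q-positive cells, compared with 69% at E13.5. The section had a median of 60 counts per cell, against 190 at E13.5. A fixed minimum of C1q counts depends on depth, and the part of depth was not tested.

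The spleens differed from these tissues and from each other. Among C1q-positive cells, Timd4 was found in 18.2% untreated and 8.19% after PHZ, Marco in 18.0% and 35.1%, Folr2 in 1.21% and 2.87%, and Cd5l in 46.2% and 39.0%. In T cells without C1q, at medians of 79 and 67 counts against 110 and 135, the shares were 13.4% and 2.04% for Timd4, 10.5% and 4.67% for Marco, 0.542% and 1.31% for Folr2, and 3.07% and 4.08% for Cd5l. In the untreated spleen, Cd5l was 6.82-fold (6.63 to 7.01) and Folr2 1.64-fold (1.45 to 1.86) higher in C1q-positive than in other cells, whereas Timd4 and Marco were lower, at 0.709 (0.694 to 0.724) and 0.878 (0.861 to 0.896). Thus 2 of 5 genes passed 1.5-fold in that section, where 11.9% of 461 genes did. In the PHZ spleen the ratios were 7.06 for Timd4, 5.69 for Marco, 3.74 for Cd5l and 2.67 for Folr2, so that 4 of 5 passed, against 11.4% of 455 genes. Clec4f was lower in C1q-positive than in other cells of both spleens. It was found in 0.177% and 0.247% of them, below its shares of 0.286% and 0.535% in the T cells taken as background.

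The share of cells with a transcript, taken by the number of C1q counts in the cell, showed the same contrast. In E14.5 liver, Timd4 was found in 1.85% of cells without C1q and in 67.5% of cells with 10 or more C1q counts. In the PHZ spleen its shares were 0.862% and 15.5%, again higher in cells with more C1q. In the untreated spleen they were 16.8% and 21.0%, which differ by far less. Marco behaved alike, with 15.7% and 18.3% in the untreated spleen against 6.51% and 50.5% in the PHZ spleen, while Cd5l was higher in cells with more C1q in both, at 3.83% and 68.5% untreated and 7.80% and 44.5% after PHZ. In the untreated spleen 13.4% of T cells without C1q, with a median of 79 counts per cell, also carried a Timd4 transcript, against 18.2% of C1q-positive cells, with a median of 110. When each cell was thinned to 50 counts, leaving out 1889 C1q-positive and 1647 T cells with fewer, the share was 10.7% of C1q-positive cells and 9.52% of T cells. At equal depth, a single Timd4 transcript was thus nearly as frequent in T cells without C1q as in C1q-positive cells of this section. Other cells without C1q also held Timd4 here (below), so this class is no clean measure of background for it.

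**Figure D2:**
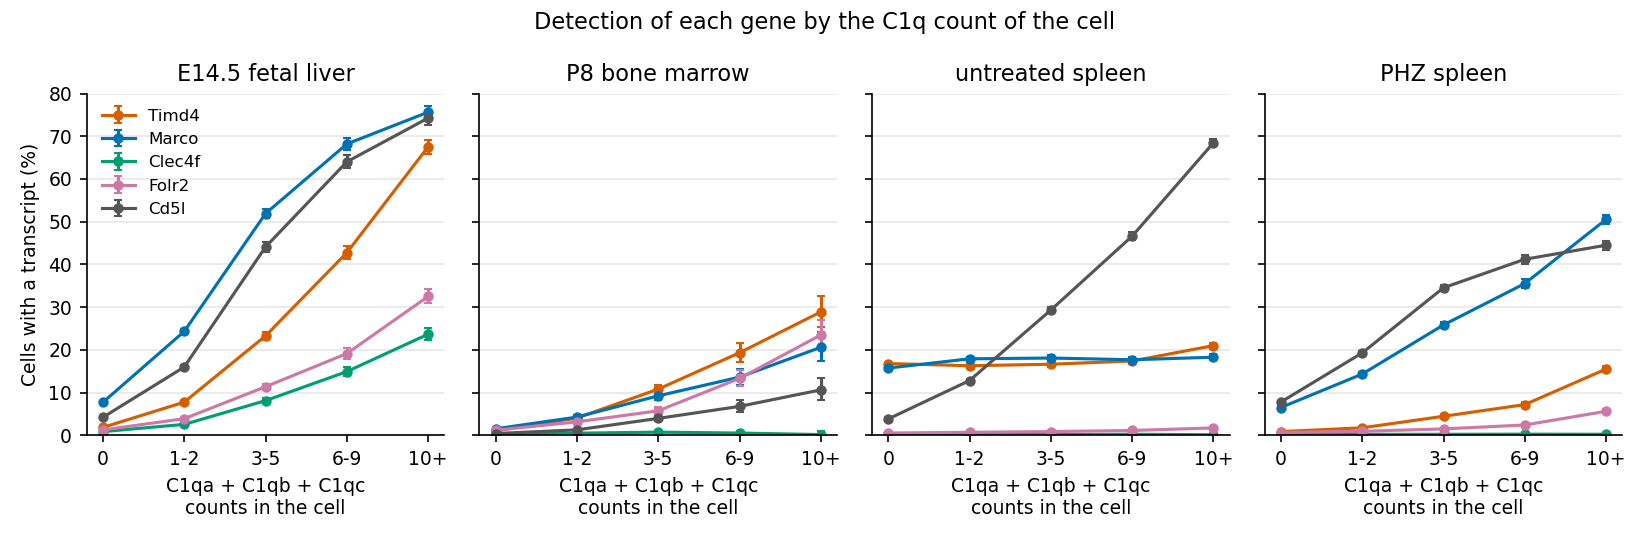
Percent of cells with at least 1 transcript of each gene (vertical axis) by the C1qa, C1qb and C1qc counts of the cell in classes from 0 to 10 or more (horizontal axis), for the 4 sections of the smaller panel. Timd4 went from 1.85% to 67.5% in E14.5 liver and from 0.862% to 15.5% in the PHZ spleen, but only from 16.8% to 21.0% in the untreated spleen.

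The contrast between the spleens was also present in cells with several Timd4 transcripts. At least 3 Timd4 counts were found in 3677 cells of the untreated spleen. Of these 38.3% were C1q-positive and 41.1% (39.5 to 42.7) had no C1q count at all, close to the 36.0% and 39.5% of all cells of that section. Among the 444 cells with 8 or more Timd4 counts, the share without C1q was 41.9%. When only transcripts over the nucleus were counted, it was 41.1% of 1539 cells with at least 3 and 44.4% of 133 cells with at least 8. In the PHZ spleen, 468 cells had at least 3 Timd4 counts, of which 96.6% were C1q-positive and 0.427% had no C1q. In E14.5 liver 98.6% of 861 such cells were C1q-positive. For cells with at least 3 Marco counts, 27.2% of 4350 lacked C1q in the untreated spleen (16.6% of 452 cells with 8 or more), 1.66% of 4808 in the PHZ spleen and 3.55% in E14.5 liver. For Cd5l, 97.3% of such cells were C1q-positive in the untreated and 87.4% in the PHZ spleen. On the larger panel the share was 80% of 95 such cells at E13.5 and 51.7% of 298 in 89-week marrow. The median counts per cell of these 2 sections were 190 and 60.

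The 1511 untreated cells with at least 3 Timd4 counts and no C1q differed from the 35564 cells with neither in both directions. Of the 15 tissue macrophage genes, 9 were at least 1.5-fold higher and 4 at least 1.5-fold lower in them, against 9.67% and 55.2% of 393 genes. Siglec1, which encodes the sialic acid receptor CD169, reached 18180 CPM (17530 to 18840) in them, compared with 415 CPM (391 to 441) in cells with neither Timd4 nor C1q. Marco reached 17820 CPM against 2140 CPM. Slc40a1, which encodes the iron exporter ferroportin, was at 12460 against 5659 CPM, Vcam1, an adhesion molecule, at 10040 against 3576 CPM, Spic, a transcription factor of red pulp macrophages, at 9146 against 3032 CPM and Hpgd, a prostaglandin-degrading enzyme, at 2353 against 1125 CPM. Mrc1, which encodes the mannose receptor CD206, and Cd163, which encodes the haemoglobin scavenger receptor, were lower, at 211 against 773 CPM and 42.1 against 184 CPM, as was Cd5l, at 223 against 608 CPM. Dnase1l3, which encodes an extracellular nuclease, was at 40760 against 8488 CPM and Cxcl13, the chemokine that attracts B cells, at 18260 against 6308 CPM. The T cell genes summed to 15420 CPM there and to 37720 CPM in cells with neither. The 1410 C1q-positive untreated cells with at least 3 Timd4 counts had 8836 CPM of Siglec1, 23520 CPM of Marco, 4381 CPM of Cd5l and 3024 CPM of Mrc1. The 452 such C1q-positive cells after PHZ had 6342 CPM of Siglec1, 32450 CPM of Marco, 1141 CPM of Mrc1 and 18340 CPM of Cxcl13.

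Over all cells Timd4 was far lower after PHZ, while Marco and Cd5l stayed near their untreated levels. The ratio of the PHZ over the untreated spleen was 0.142 (0.138 to 0.146) for Timd4, 1.06 (1.05 to 1.08) for Marco, 0.944 (0.931 to 0.956) for Cd5l, 1.33 (1.23 to 1.44) for Folr2 and 0.902 (0.747 to 1.09) for Clec4f. Thus 1 of 5 genes was at least 1.5-fold lower, where 41.5% of 472 genes were, and none was at least 1.5-fold higher, where 16.5% were. The call for Folr2 depended on the scaling. It passed 1.5-fold as counts per cell, at 0.00956 untreated and 0.0161 after PHZ, and with the erythroid genes out of the total. The small differences changed sign with the processing: the log2 ratio of Marco was -0.24 over nuclei in place of 0.09, that of Cd5l 0.26 as counts per cell in place of -0.08, and that of Folr2 -0.03 with a transcript quality score of at least 30 in place of 0.41. The median ratio of all genes was 0.731. Timd4 ranked 460 of the 472 genes from the highest ratio down, and Marco 110. Cells with Timd4 numbered 3983 per mm2 in the untreated and 495 per mm2 in the PHZ spleen, while all cells numbered 23190 and 13410 per mm2. Fewer cells of a type and less RNA per cell cannot be told apart from these values.

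Among C1q-positive cells the ratios were 0.332 (0.321 to 0.343) for Timd4, 2.11 (2.07 to 2.15) for Marco, 1.62 (1.46 to 1.79) for Folr2, 1.14 (0.818 to 1.59) for Clec4f and 0.872 (0.859 to 0.885) for Cd5l. Here 2 of 5 were at least 1.5-fold higher, against 19.7% of 447 genes, and 1 was at least 1.5-fold lower, against 37.4%. The median over all genes was 0.820. In the same cells all 12 erythroid genes were at least 1.5-fold higher, and their sum went from 48050 to 210000 CPM, while all 4 T cell genes were at least 1.5-fold lower, with a median ratio of 0.205. With the erythroid genes out of the total of these cells, the log2 ratio of Cd5l was 0.07 in place of -0.20, so that its direction turned, and those of Timd4 and Marco were -1.32 and 1.35. C1q-positive cells with Marco numbered 1505 per mm2 untreated and 1655 per mm2 after PHZ, those with Timd4 1518 and 386, and those with Cd5l 3852 and 1838. All C1q-positive cells numbered 8341 and 4711 per mm2, so that the shares with Cd5l were the 46.2% and 39.0% given above. The higher Marco level in C1q-positive cells thus went with Marco counts that lay 43.6% in C1q-positive cells before and 81.9% after PHZ. For Timd4, these values count single transcripts. Thinned to 50 counts, 10.7% of C1q-positive cells and 9.52% of T cells without C1q had one untreated, against 4.18% and 1.54% after PHZ.

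Of 15 tissue macrophage genes listed beside the 5, none was at least 1.5-fold higher and 11 were at least 1.5-fold lower after PHZ over all cells. Of all 472 genes, 16.5% were higher and 41.5% lower. The median ratio was 0.579 for the list and 0.731 for all genes. Among C1q-positive cells 8 of the 15 were lower, against 37.4% of 447 genes, with medians of 0.639 and 0.820. Hpgd was at 0.161, Cd163 at 0.199, Adgre1, which encodes F4/80, at 0.306, and Siglec1 at 0.307, while Cd68, a lysosomal glycoprotein, was at 1.26. Of 9 monocyte genes, 7 were at least 1.5-fold lower and only F13a1, which encodes a coagulation factor subunit, was higher, at 2.05. The 12 erythroid genes were all higher, with a median ratio of 10.1, and all 4 T cell genes were lower, with a median of 0.154. Counts of erythroid genes are part of the total that CPM divides by. With them taken out of it, the log2 ratio was -2.41 for Timd4 and 0.32 for Cd5l, compared with -2.82 and -0.08. Those of Marco and Folr2 also moved up, and Folr2 then passed 1.5-fold.

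T cell genes summed to 25630 CPM in the untreated and 4300 CPM in the PHZ spleen. A cut at 1% of counts lies below the first level and above the second, so the squares it takes are unlike areas. Squares of 50 µm in which T cell genes made up at least 1% of counts numbered 1370 of 1752 in the untreated spleen and 302 of 2600 in the PHZ spleen. Within such squares Timd4 was at 3688 CPM untreated and 1755 CPM after PHZ, a ratio of 0.476, and in the remaining squares the ratio was 0.117. Marco was at 1.07 and 1.16, and Cd5l at 0.491 and 0.750. Folr2 was at 3.03 inside these squares and 0.658 outside. Clec4f was at 3.54 (2.81 to 4.46) inside, from 25.0 CPM untreated and 88.5 CPM after PHZ, and at 0.921 (0.591 to 1.49) outside. It was no more frequent in C1q-positive cells of either spleen than in T cells, and whether the ratio inside is signal or background was not tested. The part of T cell-rich areas in the Timd4 difference was not tested beyond this split.

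Timd4 counts lay in fewer squares after PHZ. The squares richest in Timd4, 260 of 2600, held 81.5% of its counts after PHZ although only 11% of all counts lay there, and 72.2% of squares had none. In the untreated spleen the richest 175 of 1752 squares held 43.1%, and 6.68% had none. Both shares move with the number of counts, which was 36105 untreated and 5656 after PHZ, and the part of depth was not tested. Folr2, with 1520 counts after PHZ, had 51.0% in its richest 260 squares, and Clec4f, with 228, had all. Marco was alike in both spleens by this measure, at 45.1% untreated and 48.7% after PHZ. Cd5l was the most evenly spread, at 28.0% and 33.4%.

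**Figure D3:**
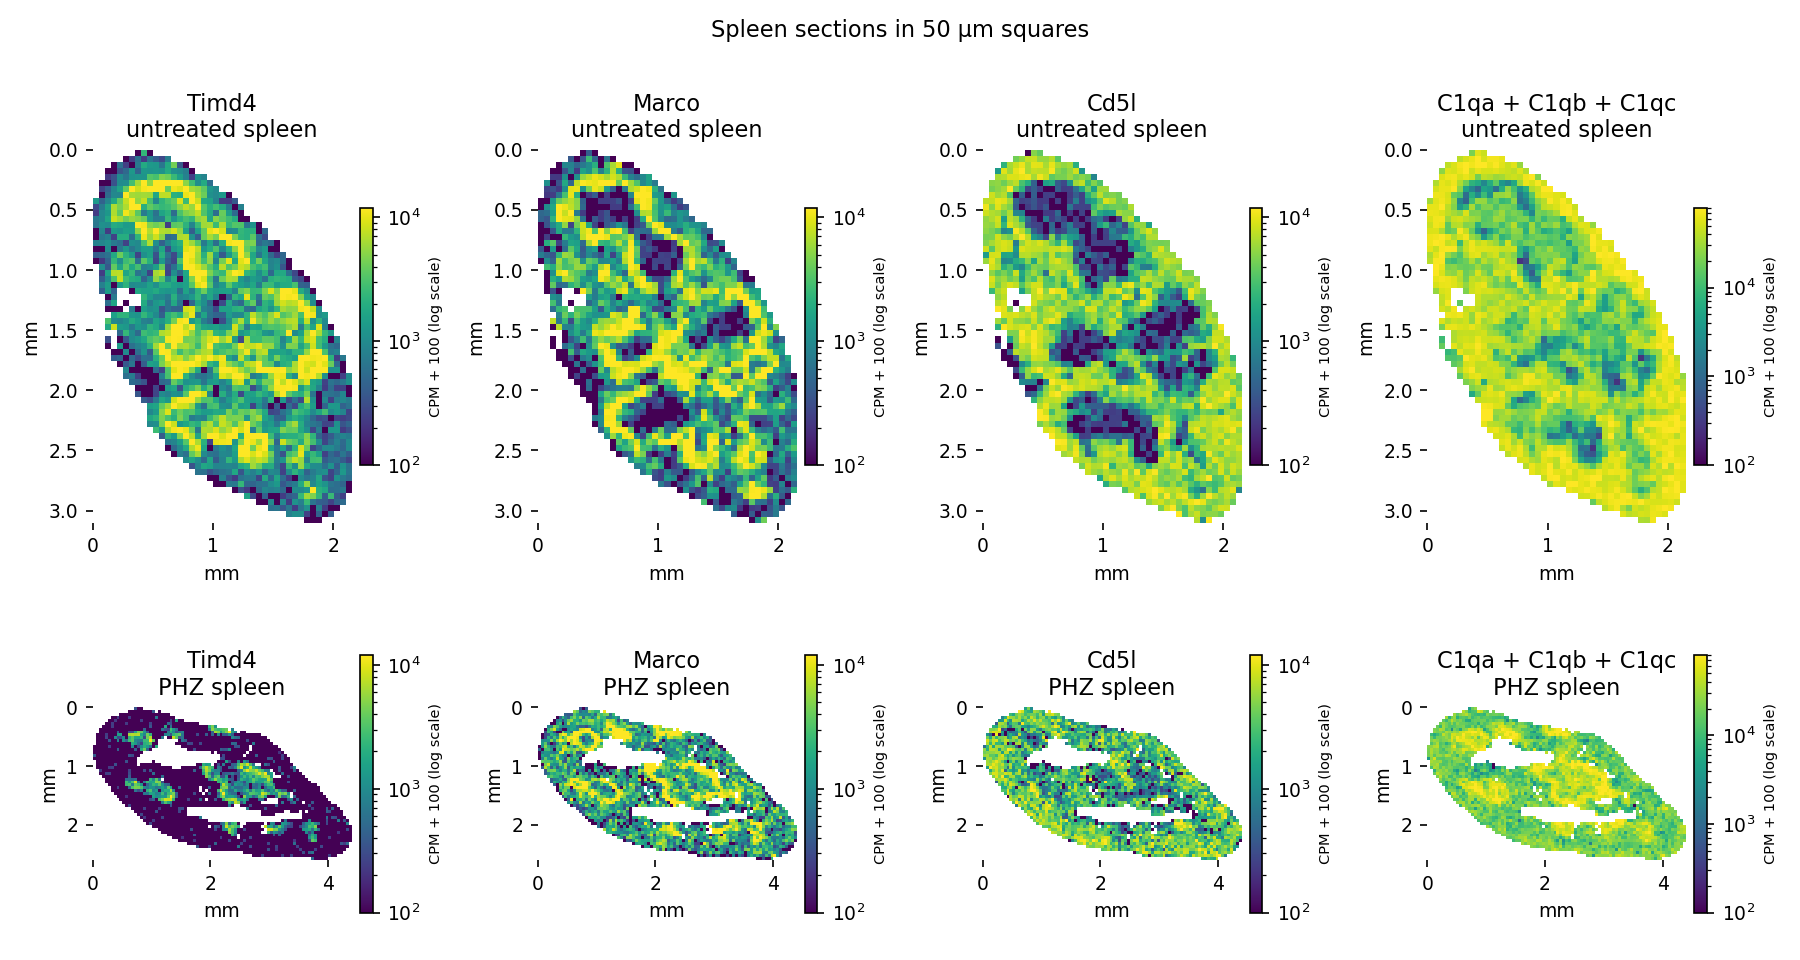
Maps of Timd4, Marco, Cd5l and the summed C1q genes in 50 µm squares of the untreated spleen (top) and the PHZ spleen (bottom), both axes in mm, coloured by CPM plus 100 on a log scale; white squares held under 10 cells or no tissue. Timd4 was absent from 72.2% of squares after PHZ and from 6.68% before, whereas Cd5l was missing from 6.04% and 9.48%.

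The genes whose pattern over squares was most like each member differed by tissue. These are Pearson correlations of log2(CPM + 100) over 2615 squares in E14.5 liver, 1457 in P8 marrow, 1752 in the spleen without and 2600 in that with PHZ. Squares of a section share a library and their depth, so the values are a description. The C1q genes and the other members were left out of this ranking. In E14.5 liver Timd4 was most like Adgre1 (0.56), Slc40a1 (0.54) and Ctss (0.54), a lysosomal protease, while Timd4 correlated with C1qb at 0.69 and with Cd5l at 0.57, and Marco with Cd5l at 0.75. In the untreated spleen Cd5l was most like Slc40a1 (0.87) and Mrc1 (0.86), Marco like Siglec1 (0.54), and Timd4 like Dnase1l3 (0.63). There Timd4 correlated with C1qb at -0.59 and with Cd5l at -0.50. In the PHZ spleen Timd4 was most like Cd4 (0.67), the T helper cell receptor, and Cxcl13 (0.66), and it correlated with C1qb at 0.48. Marco was most like Spic (0.50) there, and Cd5l like Isg20 (0.37), Prx (0.36) and Epor (0.34). In P8 marrow Timd4 was most like Epor (0.58), Ctse (0.58) and Gata1 (0.58), and Marco like Isg20 (0.48), Hemgn (0.48) and Ctse (0.47). Cd5l there was most like Isg20 (0.39), Prx (0.38) and Epor (0.38). Epor, Gata1 and Hemgn are on the erythroid list. Folr2 in P8 marrow was most like Dpt (0.59), which encodes the extracellular matrix protein dermatopontin.

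Within 40 µm of C1q-positive cells with Timd4, erythroid genes made up 3.64% of counts in the PHZ spleen, against 24.2% around C1q-positive cells without it, a ratio of 0.150. T cell genes were 2.27-fold higher there. Cd5l had the opposite surroundings, with 29.5% erythroid counts against 17.6% and a T cell ratio of 0.355. For cells with at least 3 Timd4 counts against none, the erythroid ratio was 0.0933 after PHZ and 0.343 untreated. The T cell ratio of these cells was 1.67 after PHZ and 1.53 untreated. Untreated, with any detection counted, the erythroid ratio was 0.577 for Timd4, 0.701 for Marco and 1.30 for Cd5l. In E14.5 liver it was between 1.00 and 1.08 for all 5 genes, with 42.3% to 45.5% erythroid counts around either kind of cell. In P8 marrow, Folr2 stood apart from the others, with 18.2% erythroid counts around positive cells and 35.7% around negative ones.

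**Figure D4:**
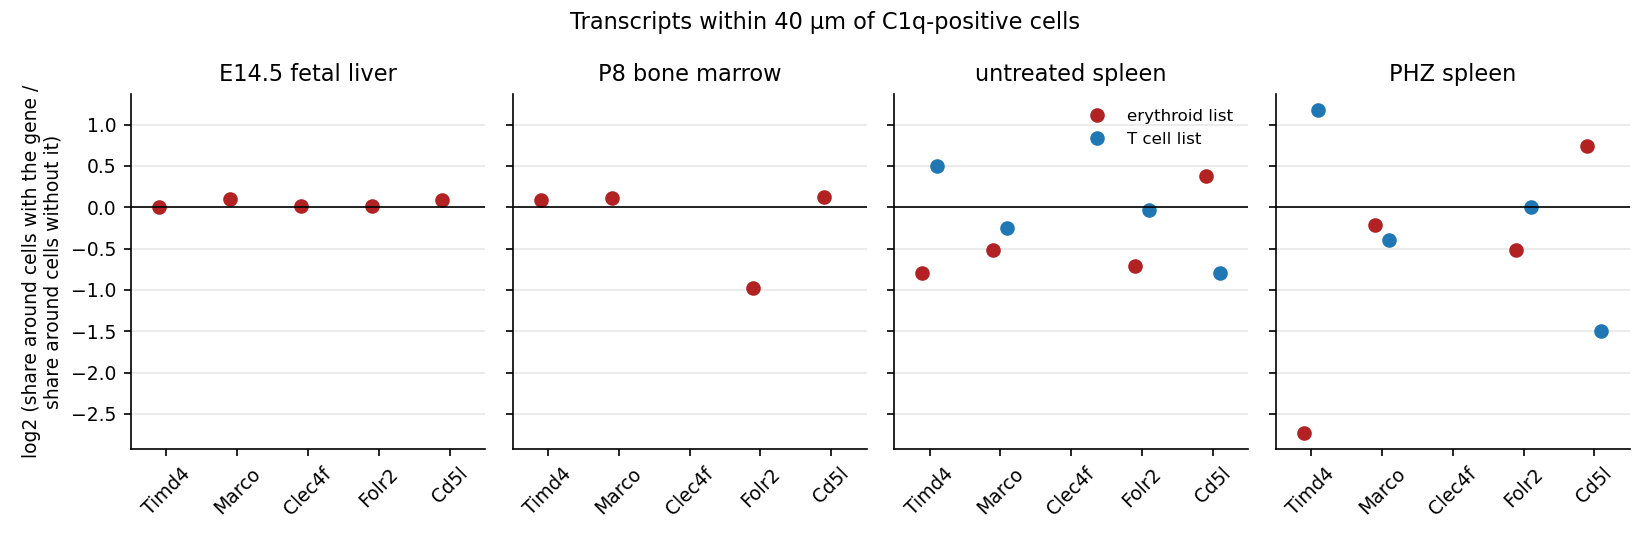
Log2 ratio of the share of counts from erythroid genes (4 sections) and from T cell genes (spleens) within 40 µm of C1q-positive cells that had a gene over those that lacked it, for genes with at least 300 positive cells; 0 means equal surroundings. Timd4 in the PHZ spleen lay lowest for erythroid genes, at a ratio of 0.150, and Folr2 in P8 marrow was at 0.510.

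Pairs of the 5 genes were next counted within C1q-positive cells, against the number expected from their separate shares in cells of like total count. In E14.5 liver all 10 pairs occurred together more often than expected, with log2 ratios from 0.22 for Timd4 with Marco (3999 cells, 3426 expected) to 0.66 for Clec4f with Folr2 (552 cells, 349 expected). Expected numbers were not matched on C1q count. There Timd4 detection rose from 23.3% at 3 to 5 C1q counts to 67.5% at 10 or more. With a C1q minimum of 10, over all sections, 26 pair values moved beyond their interval and 17 did not. Pairs among cells of like C1q count were not tested. All 5 genes were found together in 263 E14.5 liver cells, 1.76% of those that were C1q-positive. No such cell was found in P8 marrow, the untreated spleen or the PHZ spleen. Only 37, 69 and 82 C1q-positive cells there had Clec4f at all, and only 5, 32 and 50 had 4 of the 5 genes. What limited joint detection was not tested. In P8 marrow Marco and Cd5l were found together in 141 cells, with 35.9 expected (log2 1.97, 1.72 to 2.21), and Timd4 and Cd5l in 91 with 44.8 expected (log2 1.02, 0.71 to 1.32). Marco with Folr2 was below expectation there, at 36 against 62.0 cells (log2 -0.78, -1.30 to -0.31). At E13.5, Marco and Cd5l shared 66 cells with 44.2 expected (log2 0.58, 0.21 to 0.93). In 89-week marrow Marco and Folr2 shared 13 cells with 3.73 expected (log2 1.80, 0.89 to 2.58).

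In the spleens the pairs split. Timd4 and Marco occurred together in 2717 untreated cells, with 1310 expected (log2 1.05), and in 1758 PHZ cells, with 980 expected (log2 0.84). Single Timd4 transcripts were nearly as frequent in T cells without C1q in the untreated spleen. Pairs were therefore also counted with at least 2 transcripts of each gene, which gave 2.22 and 1.40 for Timd4 with Marco and -0.57 and -1.50 for Timd4 with Cd5l. Timd4 and Folr2 were likewise above expectation, at log2 0.71 and 0.89. Timd4 and Cd5l were below, at log2 -0.26 (-0.31 to -0.21) untreated and -0.84 (-0.96 to -0.73) after PHZ, and so were Folr2 and Cd5l, at -0.50 and -0.35. Marco and Cd5l were slightly above, at 0.12 and 0.25. Expected numbers taken within squares of 200 µm turned 3 of these values above 0: Timd4 with Cd5l to 0.04 untreated and 0.08 after PHZ, and Folr2 with Cd5l to 0.08 after PHZ, while untreated it was at -0.12 (174 cells, 188.8 expected). Marco with Folr2 in P8 marrow became 0.33 in the same way. With any detection counted, these 4 deficits thus held across the section but were not seen within squares of 200 µm. Pairs with at least 2 transcripts of each gene were not recomputed in that way. Excesses also moved with numbers expected within these squares. Timd4 with Marco had 1549 cells expected untreated and 1201 after PHZ, so its excess was smaller. In P8 marrow the expected numbers were 53.5 for Marco with Cd5l and 58.5 for Timd4 with Cd5l, again smaller excesses. For Marco with Cd5l in the spleens they were 3297 and 4354, against 3328 and 4950 by total count, so its excess was larger.

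**Figure D5:**
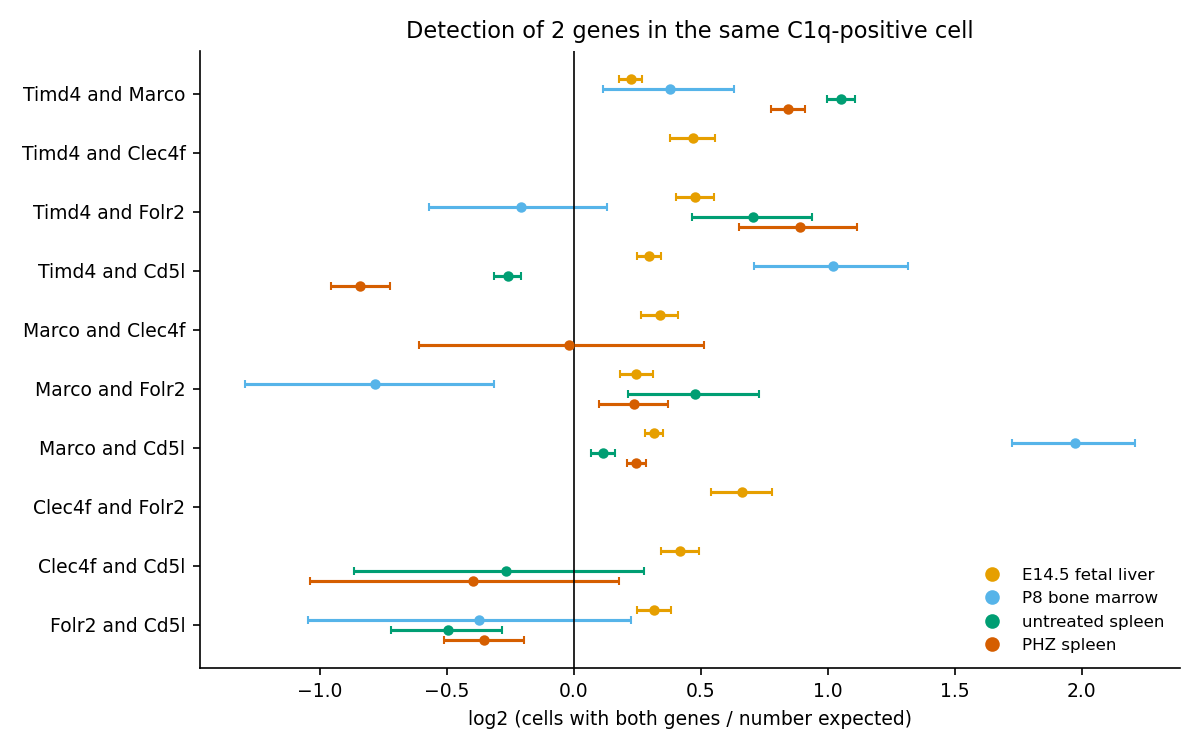
Log2 of observed over expected numbers of C1q-positive cells with both genes of a pair, for pairs with at least 20 such cells in the 4 sections of the smaller panel; bars are 95% intervals from counting error and 0 marks the expected number. All 10 pairs lie above 0 in E14.5 liver, while Timd4 with Cd5l lies at -0.26 and -0.84 in the spleens (0.04 and 0.08 with numbers expected within squares of 200 µm).

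C1q-positive cells with 1 of the 5 genes also differed in other genes from those without it. In E14.5 liver, 14 of 15 tissue macrophage genes were at least 1.5-fold higher in cells with Timd4, with a median ratio of 1.88 against 0.891 over 320 genes, of which 16.9% passed. This was not so everywhere: for cells with Timd4, 6 of 15 passed in P8 marrow (4.71% of 276 genes), 1 of 15 in the untreated spleen (7.75% of 387 genes) and 9 of 15 in the PHZ spleen (43.0% of 384 genes), where 3 were at least 1.5-fold lower (19.3%). For Folr2 in P8 marrow the list went both ways, with 4 genes at least 1.5-fold higher (43.5% of 276 genes) and 6 at least 1.5-fold lower (34.4%), and a median of 1.10 against 1.17 over all genes. The cells with Folr2 there had 7.20-fold more Wnt2, a secreted signalling protein, 6.85-fold more Lyve1, the hyaluronan receptor also found on perivascular macrophages, 6.54-fold more Dpt and 4.88-fold more Cd163, whereas the median ratio of the erythroid genes was 0.270. Cells with Cd5l in 89-week marrow had 2.59-fold (2.35 to 2.86) more Slc40a1, 2.30-fold more Vcam1 and 2.13-fold more Fcna, which encodes ficolin A. Of 11 tissue macrophage genes measured there, 5 were at least 1.5-fold higher (4.63% of 1468 genes), as were 2 of 6 erythroid genes, whose median ratio was 1.385. In the untreated spleen, cells with Cd5l had 2.29-fold more Cd163 and 2.16-fold more Mrc1, and the median ratio of the 15 tissue macrophage genes was 1.61 against 0.811 over 387 genes. After PHZ that median was 0.95 against 0.609 over 384 genes, with Cd163 at 3.24 and Mrc1 at 1.26, while the median ratio was 1.60 for the erythroid and 0.555 for the monocyte genes. The untreated cells with Folr2 had 33.6-fold more Retnla, a small secreted protein of the resistin family. Squares rich in fat cell genes held 1.57% of the untreated spleen's cells and 27.0% of its Folr2 counts, and none such was found in the PHZ spleen. Without those squares the log2 ratio of Folr2 between the spleens was 0.83 in place of 0.41.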

How the data were processed

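Transcripts were imaged in situ with Xenium in 6 sections of mouse tissue, 1 per condition. The authors deposited raw counts per gene and cell (matrices of 477 or 5050 genes), cell tables with centroids and, for the 4 sections of the smaller panel, transcript tables with a Phred-like quality score. The run descriptions name onboard software 1.7.1.0 for the smaller and 3.1.0.4 for the larger panel, with cells drawn as expanded nuclei in the first and from boundary stains in the second. The genome build behind the panels was not given in the sources used here. On the smaller panel, counting the transcripts with a score of at least 20 gave back every entry of the deposited counts.

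The 5 genes, the gene lists and the comparisons were chosen with earlier results of these data known. Cells with at least 3 C1qa, C1qb and C1qc counts were called C1q-positive. Background classes were cells without C1q and with at least 3 counts of a hepatocyte (E14.5), cartilage (P8) or T cell (spleens, 89-week marrow) list. For E13.5 an erythroid list was used, chosen after the data were seen, because the larger panel held 1 gene of the hepatocyte list. No test was run, since each condition had 1 section. Folds of 1.5 were counted over genes with at least 100 counts. Intervals were exact Poisson or binomial at 95% for counting error. Pairs were compared with the number expected within 10 classes of C1q-positive cells by total count. Genes most like a member were the 3 with the highest correlation over 50 µm squares with at least 10 cells, among genes with at least 1000 counts other than the C1q genes and the members. At most 3 genes per list were named by fold between the spleens. Other genes named were chosen after their values were seen. Doublets were not called, and cell names shared between sections numbered 0 to 6 per pair. Alternatives were other C1q minimums, thinning to 50 counts, a score of at least 30, transcripts over the nucleus, cells with at least 20 counts, counts per cell, and expected pairs within 200 µm squares. Scripts were tested on simulated data. Python 3.11.15, numpy 2.4.6, scipy 1.17.1, pandas 2.3.3 and matplotlib 3.10.9 were used. Promoters came from RefSeq on GRCm38.p6 and all 5 genes matched by symbol, Folr2 with 2 windows.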

Additional observations from a re-analysis of the deposited data

Results flagged for a closer look

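The ratio of CPM in C1q-positive over other cells lay on opposite sides of 1 in the 2 spleens for Timd4, at 0.709 untreated and 7.06 after PHZ, and for Marco, at 0.878 and 5.69. These differences were not tested, since each spleen was 1 section.

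Observed over expected numbers of cells with both genes of a pair lay on opposite sides of 0 on the log2 scale between tissues for 3 pairs. Timd4 with Cd5l was at 0.30 in E14.5 liver and 1.02 in P8 marrow but -0.26 in the untreated and -0.84 in the PHZ spleen. Marco with Folr2 was at 0.25 in E14.5 liver, 0.48 in the untreated and 0.23 in the PHZ spleen but -0.78 in P8 marrow, although the untreated value was -0.30 with at least 2 transcripts of each gene. Folr2 with Cd5l was at 0.32 in E14.5 liver but -0.50 in the untreated and -0.35 in the PHZ spleen. With numbers expected within squares of 200 µm, 4 of these deficits turned above 0: Timd4 with Cd5l became 0.037 in the untreated and 0.084 in the PHZ spleen, Folr2 with Cd5l 0.079 in the PHZ spleen and Marco with Folr2 0.33 in P8 marrow, while Folr2 with Cd5l in the untreated spleen was at -0.12, with 174 cells observed and 188.8 expected. None of these differences between sections was tested.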

How the results depend on the processing

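Each condition had 1 section, so leaving out a section was not possible, and mouse, section and condition cannot be told apart. No paired analysis was possible because each group held 1 sample and no test was run. Depth limited Folr2 at E13.5, where 31 counts were found. Clec4f in the C1q-positive cells of the spleens was no more frequent than in the T cells taken as background. Shares of cells with a transcript moved beyond their interval in 114 recomputed values and stayed within it in 10, over other C1q minimums, thinning, nuclei and a minimum of 2 transcripts. Pairs moved beyond theirs in 84 and stayed in 113, and 5 whose interval lay on 1 side of 0 changed sign.

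For the PHZ over the untreated spleen, the log2 ratios of CPM were -2.82 for Timd4, 0.09 for Marco, -0.15 for Clec4f, 0.41 for Folr2 and -0.08 for Cd5l. Timd4 kept its direction under every alternative run. In the order Timd4, Marco, Clec4f, Folr2 and Cd5l, the ratios were -2.48, 0.43, 0.19, 0.75 and 0.26 as counts per cell, -2.41, 0.50, 0.26, 0.82 and 0.32 with the erythroid genes out of the total, -1.59, 1.08, 0.19, 0.69 and -0.20 in C1q-positive cells, -1.32, 1.35, 0.46, 0.96 and 0.072 in C1q-positive cells with the erythroid genes out of their total (chosen after seeing the data), and -2.86, -0.24, 0.15, 0.50 and -0.31 over nuclei. With scores of at least 30, Timd4 was at -2.63, Marco at 0.28, Folr2 at -0.034 and Cd5l at 0.23. Cells with at least 20 counts moved none of the 5. Chosen after seeing the data, squares with at least 1% T cell counts gave -1.07 for Timd4, 1.82 for Clec4f, 1.60 for Folr2 and -1.03 for Cd5l, and leaving out squares of fat genes gave 0.83 for Folr2 and 0.055 for Marco. The cause of these sign changes was not tested.

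For E14.5 liver over the untreated spleen, in the same gene order, counts per cell gave -1.62, -0.080, 4.14, 2.25 and -0.57 and C1q-positive cells 0.23, 1.33, 6.26, 3.27 and 0.10, against -2.52, -0.98, 3.24, 1.35 and -1.47 over all cells. For P8 marrow over the untreated spleen, counts per cell gave -3.18, -2.78, 0.92, 1.71 and -4.67 and C1q-positive cells -1.39, -1.24, 1.46, 2.70 and -3.90. For 89-week marrow over E13.5 liver, counts per cell gave -4.07 for Marco, -1.69 for Folr2 and -1.88 for Cd5l, and C1q-positive cells gave -2.80 for Marco and -1.41 for Cd5l. With pairs expected within 200 µm squares, Timd4 with Cd5l became 0.037 in the untreated and 0.084 in the PHZ spleen, Folr2 with Cd5l 0.079 in the PHZ spleen, and Marco with Folr2 0.33 in P8 marrow. With at least 2 transcripts of each gene, an alternative chosen after seeing the data, Marco with Folr2 became -0.30 in the untreated spleen.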
